A study of Homo sapiens with 15 samples.

Results

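The change between 6 h and 24 h of KB528 was measured in the wild type myeloma cell line RPMI-8226, an established human line, by strand-specific RNA sequencing of messenger RNA. Cells treated with 100 nM KB528 for 24 h (3 libraries) were set against cells treated with 100 nM KB528 for 6 h (3 libraries), so that both groups carried the drug at the same dose. The study also holds 3 libraries at 1 h, 3 at 3 h and 3 of cells given DMSO, 15 libraries in all, and the labels place DMSO at 0 h. Whether replicate libraries stem from separate cultures is not stated, and p-values here reflect the spread among libraries of a time, which may be technical. No DMSO culture of 6 h or 24 h was among the samples, so KB528 and time in culture cannot be told apart in this comparison. In bulk RNA, fewer cells of a type and less RNA per cell cannot be told apart either.

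Lysine acetyltransferases such as p300 and CBP, encoded by EP300 and CREBBP, add acetyl groups to histones at enhancers and promoters, and bromodomain proteins read these marks and bring in the transcription machinery. The labels describe KB528 as a compound that blocks this activity of p300. Myeloma cells are malignant plasma cells, which secrete antibody through a large endoplasmic reticulum (ER) and depend on the transcription factor IRF4, which the series title names.

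All gene rows of the deposited table of transcript abundance in TPM (transcripts scaled to a fixed total per library, after division by length) that averaged 1 TPM or more across all 15 libraries entered the comparison, which kept 12002 of 26364 gene rows, or 45.5%. BEND6 was the last gene inside this limit, with 1.21 TPM at 24 h and 0.808 TPM at 6 h, and MME the first outside it, with 0.651 TPM at 24 h and 0.687 TPM at 6 h. Each library sums to 1000000 TPM, so values are shares, and depth is not held in this unit. The spike-in RNAs took 12.3% to 14.5% of the 24 h libraries and 9.35% to 14.5% of the 6 h libraries. How they were added relative to cell number is not stated in the labels. At 24 h 12228 to 12356 genes reached 1 TPM, against 11684 to 11796 at 6 h. Across genes, libraries of 1 time correlated with r of 0.996 to 0.998, and libraries of different times with r of 0.974 to 0.976. The plasma cell markers were present at both times: SDC1 (CD138) lay at 155 to 160.3 TPM at 24 h and 93.9 to 103 TPM at 6 h, and MZB1, a chaperone of antibody assembly, at 1163 to 1183 TPM at 24 h and 1899.7 to 2036 TPM at 6 h. SLAMF7 was close to the limit, at 0.535 to 1.11 TPM over the 6 libraries.

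By 24 h the levels of most genes had moved away from those at 6 h, mostly by small amounts. With limma on log2(TPM + 1) and Benjamini-Hochberg adjustment at 0.05, 8662 of 12002 genes differed (72.2%), of which 5220 were higher at 24 h (43.5% of all tested) and 3442 lower (28.7%). The 24 h and 6 h libraries did not overlap for 9036 genes (75.3%). The median log2 fold change over all genes tested was 0.08, with quartiles of −0.18 and 0.39, and the median size among called genes was 0.38. A log2 fold change of 1 or more was reached by 453 higher genes (3.77% of all tested), and of −1 or less by 86 lower genes (0.717% of all tested). Increases of this size outnumbered decreases, by 235 to 188 with spike-in scaling and by 897 to 138 with a pseudocount of 0.1. Log2 fold changes here compare log2(TPM + 1) values, 24 h over 6 h, with the standard error (SE) after ±, while means of TPM have the SD of 3 libraries after ±. They understate the change of low genes. When libraries were scaled to the spike-ins, whose share varied between the 6 h libraries, 1634 genes were called and the median of all genes was −0.13. Relative to the median of all genes, 41 of 42 gene lists kept the sign of their median under that scaling. Of 196 called genes among the 201 taken by the rule for naming, 79 lost their call with it (adjusted p 0.0537 to 0.923), and 3 of these changed sign.

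Among the 12 largest increases were a pair of receptors, a phospholipase and the transcriptional inhibitor ID3. ID3, an inhibitor of basic helix-loop-helix transcription factors, had 39.6, 39.5 and 39.4 TPM at 24 h, against 5.45, 7.09 and 6.19 TPM at 6 h. The 24 h libraries agreed closely and all lay above the 6 h libraries. The log2 fold change was 2.49 ± 0.074, and its DMSO mean was 13.1 TPM. PLA2G4A, the cytosolic phospholipase that releases arachidonic acid, had 55.2, 54.5 and 50.9 TPM at 24 h, against 12.9, 12.9 and 13.7 TPM at 6 h. The 24 h mean was 4.07 times the 6 h mean (log2 fold change 1.95 ± 0.049), with no overlap between times, and the DMSO mean was 61.8 TPM. CCR2, a receptor for the monocyte chemokine CCL2, had 20.6, 20.3 and 18.7 TPM at 24 h, against 2.997, 2.82 and 3.17 TPM at 6 h. All 3 libraries at 24 h were higher than any at 6 h, with log2 fold change 2.38 ± 0.062, and the DMSO mean was 8.66 TPM. SSTR3, a somatostatin receptor, had 37.4, 37.9 and 35.4 TPM at 24 h, against 6.59, 7.55 and 7.49 TPM at 6 h, also without overlap (log2 fold change 2.21 ± 0.059). Its DMSO mean was 45.9 TPM, above the 24 h level.

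PEX5L had 29.5 ± 1.80 TPM at 24 h and 4.60 ± 0.0250 TPM at 6 h (log2 fold change 2.44 ± 0.056), and AKR1C1, an aldo-keto reductase that acts on steroids, had 19.2 ± 1.25 TPM at 24 h and 4.26 ± 0.258 TPM at 6 h (log2 fold change 1.94 ± 0.065). PRAMEF4, of a cancer-testis family with near-identical copies whose reads may be shared, had 18.98 ± 0.511 TPM at 24 h and 2.48 ± 0.239 TPM at 6 h (log2 fold change 2.52 ± 0.065). Long noncoding RNAs were among them: LINC01573 rose by 2.01, LINC01484 by 1.95 and LINC00996 by 1.92 on the log2 scale. LRRN2 rose by 1.87, and MIR4712, a microRNA gene whose short transcript is measured with doubt in such libraries, by 2.29. By smallest adjusted p, AKR1C3 and IGFBP3 joined this group. AKR1C3, which makes androgens and prostaglandins, had 140.3, 142 and 143 TPM at 24 h, against 45.02, 47.00 and 46.3 TPM at 6 h. Its 24 h mean was 3.07 times its 6 h mean (log2 fold change 1.60 ± 0.036, adjusted p = 3.01e-09), all 24 h libraries were above the DMSO mean of 49.6 TPM, and reads may be shared with AKR1C1 and AKR1C2. IGFBP3, which binds insulin-like growth factors outside the cell, had 324, 331 and 314 TPM at 24 h, against 100.1, 105 and 109.6 TPM at 6 h. The groups did not overlap (log2 fold change 1.61 ± 0.04), and both lay below the DMSO mean of 677 TPM.

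**Figure D1:**
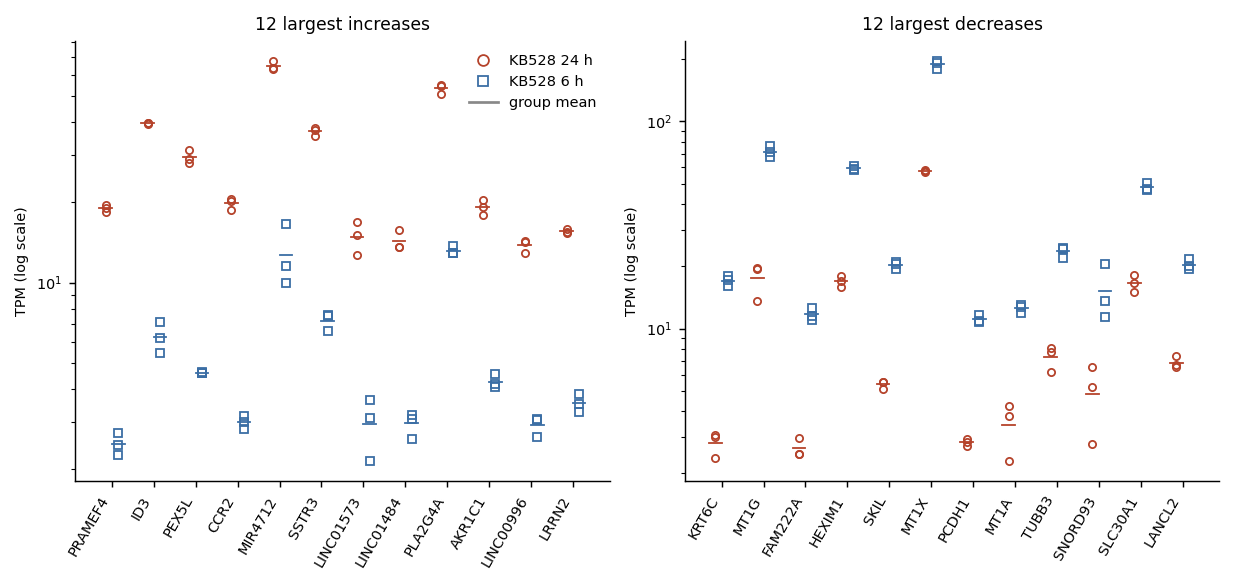
TPM on a log scale for the 12 largest increases (left) and 12 largest decreases (right) between 6 h and 24 h of KB528, with a point per library (circles 24 h, squares 6 h) and a short line at each group mean. In every gene shown the libraries of the 2 times were separate, because the choice of genes required it, and MIR4712 and SNORD93 were the most spread.

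The 12 largest decreases held genes that were above DMSO at 3 h and genes of zinc handling. HEXIM1, which with 7SK RNA holds the elongation factor P-TEFb inactive, had 17.1, 17.99 and 15.9 TPM at 24 h, against 58.7, 58.2 and 61.2 TPM at 6 h. The 24 h libraries were all lower (log2 fold change −1.75 ± 0.051, adjusted p = 8.18e-09) and the DMSO mean was 16.9 TPM, from which the 24 h level differed by 0.0048 on the log2 scale (95% confidence interval −0.21 to 0.22). SKIL, which represses SMAD transcription factors, had 5.50, 5.13 and 5.51 TPM at 24 h, against 20.6, 19.4 and 20.9 TPM at 6 h. Again the times were separate (log2 fold change −1.74 ± 0.055), and the 24 h level stayed above the DMSO mean of 3.53 TPM by 0.50 (95% confidence interval 0.34 to 0.66). FAM222A fell in the same way to 2.64 TPM at 24 h, against 11.7 TPM at 6 h and 2.85 TPM in DMSO.

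Some other large decreases ended below the DMSO level. KRT6C, a keratin of stratified epithelium with close copies, had 3.08, 2.38 and 2.99 TPM at 24 h, against 16.1, 17.9 and 17.1 TPM at 6 h. This was the largest decrease (log2 fold change −2.25 ± 0.079), and DMSO cells had 31.4 TPM. PCDH1, a protocadherin, had 2.83 ± 0.112 TPM at 24 h and 11.1 ± 0.442 TPM at 6 h (log2 fold change −1.66 ± 0.061), against 11.95 TPM in DMSO. TUBB3, a tubulin best known from neurons, fell by 1.57 on the log2 scale, LANCL2 by 1.44 and the small nucleolar RNA SNORD93 by 1.49. Few tested genes passed between under 0.5 TPM and 2 TPM or more. This fixed cut is not a detection limit, and the filter of 1 TPM over 15 libraries limited which genes could pass it. RRAD, a small GTPase, and KRT6B were the 2 genes under 0.5 TPM in every 24 h library and at 2 TPM or more in every 6 h library, and RRAD had 0.204, 0.380 and 0.0837 TPM at 24 h, against 2.92, 3.46 and 2.96 TPM at 6 h. MIR762, OR2C1 and CCDC64B were the 3 in the other direction, and OR2C1, named as an olfactory receptor, averaged 2.57 ± 0.683 TPM at 24 h and 0.241 ± 0.0311 TPM at 6 h, against 2.99 TPM in DMSO.

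Metallothioneins, small proteins that bind zinc and copper, and the zinc exporter SLC30A1 were lower in most cases. Of 11 tested genes of zinc handling, 9 were lower and 1 higher at 24 h (7 lower and 0 higher with spike-in scaling), with a median log2 fold change of −0.69, and their summed level was 173 to 186 TPM at 24 h, against 410.2 to 446 TPM at 6 h. MT1X had 56.8, 57.7 and 58.6 TPM at 24 h, against 179.7, 192 and 196 TPM at 6 h. The 24 h libraries lay far below the 6 h libraries (log2 fold change −1.70 ± 0.041) and under the DMSO mean of 100.4 TPM. MT1G had 17.6 ± 3.46 TPM at 24 h and 71.5 ± 4.46 TPM at 6 h, MT1A had 3.44 ± 1.03 TPM at 24 h and 12.5 ± 0.610 TPM at 6 h and SLC30A1 had 16.6 ± 1.58 TPM at 24 h and 48.2 ± 2.05 TPM at 6 h. Reads of the metallothionein genes can be shared between copies, and the effect of this was not tested. The zinc importer SLC39A10 was the member that rose (log2 fold change 0.63 ± 0.051). SLC39A10 lost its call with spike-in scaling.

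The promoter of MT1X is shown because it carries several copies of the metal response element core, here TGCACNC or TGCGCNC, where N is any base. The words were searched on both strands of the 250 bases upstream of the RefSeq start on GRCh38.p14, while the deposited table was made on hg19. The window runs over chr16:56682220-56682469 on the + strand, and capitals mark the 4 matches.
MT1X: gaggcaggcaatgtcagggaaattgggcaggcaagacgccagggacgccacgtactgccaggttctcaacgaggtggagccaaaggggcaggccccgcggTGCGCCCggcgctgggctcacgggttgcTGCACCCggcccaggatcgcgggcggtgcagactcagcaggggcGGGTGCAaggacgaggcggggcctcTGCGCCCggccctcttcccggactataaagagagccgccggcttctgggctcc

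Of 5 tested zinc genes found in the promoter table, 3 held the core (MT1X, MT2A and SLC30A1), and all 3 were lower at 24 h. Among all 27305 promoters 24.7% held it, and 34.1% of the 9273 promoters of tested genes. A match is a description of the sequence and not a site of binding.

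Genes of the ER and of secretion were mostly lower at 24 h, with a median below DMSO. Of 54 tested genes of ER chaperones, translocation and secretion, 46 were lower, 3 were higher and 5 were not called, and the median log2 fold change was −0.45, against 0.08 over all genes tested. Their summed level was 11215 to 11478 TPM at 24 h, against 16685 to 17577 TPM at 6 h. With spike-in scaling 25 were lower and 0 higher. HSPA5 (BiP), the Hsp70 of the ER lumen, had 407, 405 and 397 TPM at 24 h, against 987, 1006 and 1045 TPM at 6 h. Every 24 h library lay far below every 6 h library (log2 fold change −1.33 ± 0.031, adjusted p = 3.01e-09), and the DMSO mean was 710.3 TPM. SEC61A1, the pore of the protein translocon, had 283, 279 and 273 TPM at 24 h, against 569, 599.7 and 637 TPM at 6 h. HSP90B1 (GRP94), the ER Hsp90, had 440.4, 443 and 418 TPM at 24 h, against 792, 795 and 815 TPM at 6 h. Neither gene overlapped between times, with log2 fold changes of −1.11 and −0.88. ERN1, the sensor IRE1 that splices XBP1 mRNA, was higher, with 22.8 ± 0.783 TPM at 24 h and 16.7 ± 1.10 TPM at 6 h (log2 fold change 0.43 ± 0.056). Against DMSO, in a fit of all 15 libraries in which 71.4% of genes were called at 24 h and 68.9% at 6 h, the median over the list was −0.41 at 24 h and 0.13 at 6 h. ERN1 lost its call with spike-in scaling.

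The HSPA5 promoter is shown because it holds the ER stress element, searched as CCAAT and CCACG with 9 bases of any kind between them. The window is chr9:125241344-125241593 on the − strand of GRCh38.p14, written in the direction of transcription, with the match in capitals.
HSPA5: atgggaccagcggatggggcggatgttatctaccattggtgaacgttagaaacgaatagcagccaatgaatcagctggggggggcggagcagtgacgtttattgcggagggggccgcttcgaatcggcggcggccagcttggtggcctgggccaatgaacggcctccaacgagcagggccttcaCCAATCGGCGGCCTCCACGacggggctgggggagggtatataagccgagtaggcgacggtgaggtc

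Of 47 listed genes with a RefSeq promoter, 6 held the element in either direction (12.8%), against 22 of 27305 promoters (0.0806%) and 14 of the 9273 promoters of tested genes (0.151%). These were HSPA5, HSP90B1, CALR, CANX, CRELD2 and XBP1, and all 6 were lower at 24 h, by 0.43 (XBP1) to 1.33 (HSPA5) on the log2 scale. XBP1 lost its call with spike-in scaling.

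Most chaperones of the cytosol were also lower. Of 27 heat shock chaperones, 18 were lower and 4 higher, with a median of −0.21, against 10 lower and 0 higher with spike-in scaling. HSPA8, the constitutive Hsp70, had 1343, 1302 and 1296 TPM at 24 h, against 2376, 2410.3 and 2489 TPM at 6 h. DNAJB1, an Hsp40 partner of Hsp70, had 133, 137 and 130.2 TPM at 24 h, against 289, 302 and 319 TPM at 6 h. Both were lower in every 24 h library (log2 fold changes −0.88 ± 0.028 and −1.18 ± 0.041). Their means in DMSO and at 1 h and 3 h were 1566, 1521 and 1431 TPM for HSPA8 and 118, 135 and 109.9 TPM for DNAJB1, all below the 6 h mean. HSPA1B, which shares nearly all its sequence with HSPA1A, had 23.02 ± 0.154 TPM at 24 h and 52.9 ± 1.96 TPM at 6 h. HSPB1, a small heat shock protein, went the other way, with 957 ± 23.9 TPM at 24 h and 717 ± 41.02 TPM at 6 h (log2 fold change 0.42 ± 0.041). HSPB1 lost its call with spike-in scaling.

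The HSPA8 promoter carries 2 heat shock elements, searched on both strands as GAA, TTC and GAA, or TTC, GAA and TTC, with 2 bases of any kind between the parts, and lies at chr11:123062137-123062386 on the − strand of GRCh38.p14.
HSPA8: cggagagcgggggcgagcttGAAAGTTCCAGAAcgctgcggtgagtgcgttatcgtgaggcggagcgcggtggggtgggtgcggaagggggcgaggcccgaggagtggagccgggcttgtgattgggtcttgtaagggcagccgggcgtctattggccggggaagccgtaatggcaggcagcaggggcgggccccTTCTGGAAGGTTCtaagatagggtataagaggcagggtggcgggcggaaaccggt

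Capitals mark both matches. Among 25 listed chaperones with a promoter, 4 held such an element (HSPA6, HSPA8, DNAJB6 and CHORDC1), and all 4 were lower at 24 h, while 0.44% of all promoters and 0.32% of those of tested genes held one.

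Lipid synthesis, the proteasome and stress pathways moved by different amounts. Of 33 genes of sterol and fatty acid synthesis, 24 were lower and 5 higher (median −0.42), against 14 lower and 1 higher with spike-in scaling. IDI1, which makes the isoprenoid building block, had 51.9 ± 1.25 TPM at 24 h and 116 ± 2.33 TPM at 6 h (log2 fold change −1.15 ± 0.038), and the demethylase CYP51A1 had 57.4 ± 0.726 TPM at 24 h and 112 ± 3.54 TPM at 6 h. INSIG1, which retains the sterol sensor in the ER, had 56.1 ± 1.08 TPM at 24 h and 110.4 ± 6.33 TPM at 6 h, below its DMSO mean of 196 TPM. ABCG1, which exports cholesterol, rose (10.3 ± 0.319 TPM at 24 h and 3.71 ± 0.0879 TPM at 6 h, log2 fold change 1.26 ± 0.058). The core of the sterol regulatory element, searched as TCAC and CCAC with 1 base of any kind between them, was in 1 of 25 listed promoters of the sterol genes (4.0%), against 0.875% of all promoters and 0.83% of those of tested genes. Among 42 proteasome subunits 28 were lower and 5 higher (median −0.17), against 2 lower and 0 higher with spike-in scaling, with ADRM1, a ubiquitin receptor, at 247 ± 7.28 TPM at 24 h and 381 ± 17.5 TPM at 6 h, PSME3 lower by 0.65 and PSMD12 by 0.40 on the log2 scale, while the immunoproteasome subunit PSMB9 rose by 0.83. Of 38 ATF4 targets and tRNA synthetases, 16 were higher and 10 lower, the median was −0.01, and 2 were higher and 3 lower with spike-in scaling. With median-ratio scaling 16 were higher and 17 lower. Among all genes tested 43.5% were higher and 28.7% lower. CHAC1, which degrades glutathione, had 2.97 ± 0.563 TPM at 24 h and 0.536 ± 0.120 TPM at 6 h, PCK2 had 18.9 ± 1.11 TPM at 24 h and 8.50 ± 0.603 TPM at 6 h and PSPH, of serine synthesis, had 67.05 ± 1.43 TPM at 24 h and 39.2 ± 1.07 TPM at 6 h. ATF5, a transcription factor of the same response, fell to 14.3 TPM at 24 h, against 38.6 TPM at 6 h, so that the list split. PSMD12, PSMB9 and PSPH lost their calls with spike-in scaling.

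Antioxidant and degradation genes were also mixed, where 43.5% of all genes tested were higher and 28.7% lower. The 29 NRF2 genes had 14 higher and 7 lower, with a median of 0.08, against 3 higher and 0 lower and a median of −0.15 with spike-in scaling. AKR1C2 rose by 1.25, while KEAP1, the NRF2 inhibitor, fell to 135 TPM at 24 h, against 182 TPM at 6 h. Of 50 autophagy and lysosome genes 23 were higher and 10 lower, with a median of 0.10, against 2 higher and 3 lower and a median of −0.11 with spike-in scaling. CTSS, a cathepsin, had 49.1 ± 1.49 TPM at 24 h and 30.9 ± 0.782 TPM at 6 h, and RRAGD, a GTPase of the mTORC1 switch, rose by 1.16. SQSTM1 (p62), the cargo receptor of autophagy, had 282, 288 and 279 TPM at 24 h, against 607, 641 and 666 TPM at 6 h. The times did not overlap (log2 fold change −1.17 ± 0.037), and the DMSO mean was 243 TPM. Of 38 glycolysis and hypoxia genes 15 were lower and 13 higher (median −0.05), against 3 lower and 0 higher with spike-in scaling: LDHA had 519 ± 6.69 TPM at 24 h and 652 ± 10.3 TPM at 6 h, HK2 fell by 0.51 and ENO2 rose by 0.94, and TXNIP, which limits glucose uptake, had 142 ± 2.16 TPM at 24 h and 186 ± 6.30 TPM at 6 h. KEAP1, CTSS, LDHA, ENO2 and TXNIP lost their calls with spike-in scaling.

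Most MYC targets and nucleolar proteins fell, while most ribosomal proteins of the cytosol were not called. Of 57 MYC targets and nucleolar proteins, 52 were lower and 0 higher, and the median log2 fold change was −0.47. With spike-in scaling 26 were lower and 0 higher. ODC1, the first enzyme of polyamine synthesis, had 387, 375 and 373 TPM at 24 h, against 766, 781 and 807 TPM at 6 h. DKC1, the pseudouridine synthase of small nucleolar particles, had 92.1, 92.1 and 86.97 TPM at 24 h, against 157, 158 and 161 TPM at 6 h. Both were lower in every 24 h library (log2 fold changes −1.05 ± 0.031 and −0.81 ± 0.037), and LYAR, a nucleolar protein, fell by 0.78. Of 78 cytosolic ribosomal proteins 12 were higher and 9 lower, 57 were not called, and the median was −0.002. With spike-in scaling 0 were called and the median was −0.23, and with median-ratio scaling 3 were higher and 20 lower. RPL10 had 1440.0 ± 16.8 TPM at 24 h and 1708 ± 55.9 TPM at 6 h (log2 fold change −0.25 ± 0.03), whereas RPL22 had 489 ± 6.95 TPM at 24 h and 432 ± 12.2 TPM at 6 h, a difference that turned negative with spike-in scaling, as did those of RPL3 and RPL10A, and the call of RPL10A was also lost with median-ratio scaling. Among the rows with the most TPM, RPLP1 averaged 14479.8 ± 301 TPM at 24 h and 14311 ± 301 TPM at 6 h, and with RPLP0, RPL7A and RPS2 it was not called. EEF1A1, the elongation factor, had 7615 ± 96.03 TPM at 24 h and 7963 ± 167 TPM at 6 h, a small difference whose call was lost without single libraries (adjusted p up to 0.171), and FTL, the ferritin light chain, had 6213 ± 49.7 TPM at 24 h and 7507 ± 266 TPM at 6 h. The E-box CACGTG, the motif that MYC and MAX bind, was in 8 of 49 listed promoters of MYC targets (16.3%), of which 6 were lower and 0 higher, against 6.49% of all promoters and 9.24% of those of tested genes. RPL10, RPL22, RPL3, RPL10A, EEF1A1 and FTL lost their calls with spike-in scaling.

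Most proteins of the mitochondrial ribosome also fell. Of 76 mitochondrial ribosomal proteins 55 were lower and 8 higher (median −0.22), against 5 lower and 0 higher with spike-in scaling: MRPL54 had 94.8 ± 3.23 TPM at 24 h and 155 ± 1.45 TPM at 6 h, MRPL32 fell by 0.66, MRPL49 by 0.54, and MRPL33 rose by 0.31. Oxidative phosphorylation, with 76 genes, had 28 higher and 12 lower and a median of 0.04, against 0 higher and 0 lower and a median of −0.19 with spike-in scaling. The balance depended on the settings, with 19 higher and 24 lower (median −0.0015) under median-ratio scaling. With all 15 libraries in the fit 15 were higher and 10 lower. Among all genes tested 43.5% were higher and 28.7% lower. NDUFB1 and NDUFC1, of complex I, rose by 0.48 and 0.48, NDUFV2 rose by 0.29, and UQCRFS1, of complex III, fell by 0.32. MRPL33, NDUFB1, NDUFC1, NDUFV2 and UQCRFS1 lost their calls with spike-in scaling.

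Noncoding RNAs moved by class. The classes were chosen after values were seen. Of 185 small nucleolar RNAs (snoRNAs), which guide modification of ribosomal RNA, 91 were lower and 7 higher (82 and 2 with spike-in scaling), with a median of −0.40, and 19 fell by 1 or more on the log2 scale. C/D box snoRNAs had 60 of 113 lower (median −0.46), and H/ACA box snoRNAs 30 of 70 (median −0.28). Their length and the use of messenger RNA libraries make these values uncertain, and reads of a snoRNA and of the host gene whose intron holds it cannot be told apart in a gene count. Of 21 host genes 15 were lower and 1 higher, against 6 lower and 0 higher with spike-in scaling: GAS5 had 277 ± 1.41 TPM at 24 h and 406 ± 7.06 TPM at 6 h (log2 fold change −0.55 ± 0.029), SNHG1 had 225 ± 6.79 TPM at 24 h and 337 ± 9.24 TPM at 6 h, SNHG12 fell by 0.97, and SNHG10 rose by 0.35. Long noncoding RNAs went the other way, with 363 of 506 higher and 43 lower (median 0.53), 149 and 15 with spike-in scaling, and 70 rose by 1 or more. MicroRNA genes had 31 higher and 32 lower of 190, against 28 higher and 42 lower with spike-in scaling. Over all 12002 genes tested 43.5% were higher and 28.7% lower, and with spike-in scaling 883 were higher and 751 lower. SNHG10 lost its call with spike-in scaling.

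**Figure D2:**
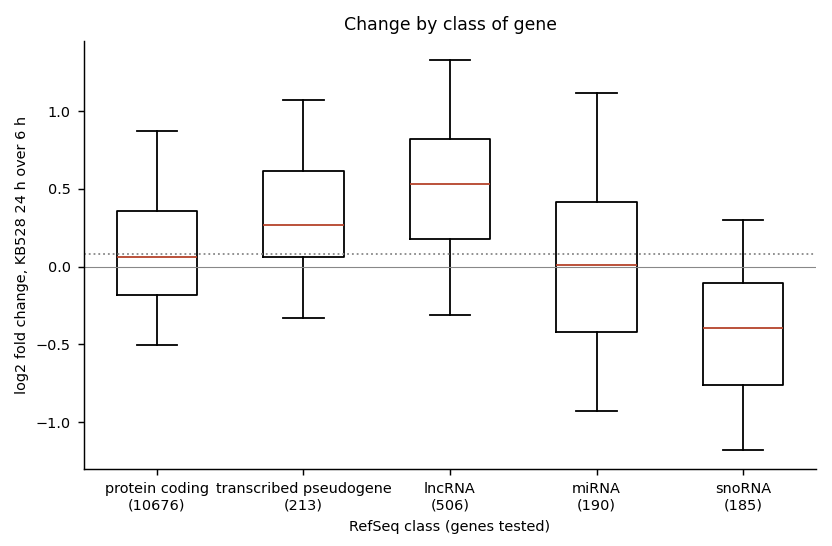
Log2 fold change, 24 h over 6 h, by RefSeq class with the number of genes tested. Boxes span the quartiles, red lines mark medians and whiskers the 5th and 95th percentiles, the solid line marks 0 and the dotted line the median of all genes tested (0.08). Long noncoding RNAs have the highest median (0.53) and snoRNAs the lowest (−0.40).

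Replication-dependent histone mRNAs mostly lack a poly(A) tail, which makes their levels uncertain in messenger RNA libraries. Of 28 tested, 15 were lower and 1 higher (median −0.37), against 10 lower and 0 higher with spike-in scaling, with HIST1H2BK at 83.01 ± 2.85 TPM at 24 h and 189.5 ± 10.4 TPM at 6 h, HIST1H2BJ lower by 1.02, HIST1H2BC lower by 0.78 and HIST1H2AG higher by 0.28, a call lost without single libraries (adjusted p up to 0.138), in a family whose reads are partly shared. Cell cycle genes were split. Of 56 DNA replication genes 25 were lower and 19 higher (median −0.07), against 6 lower and 0 higher with spike-in scaling: RRM2, a ribonucleotide reductase subunit, had 199 ± 2.92 TPM at 24 h and 314 ± 11.5 TPM at 6 h, UHRF1 fell by 0.80 and ORC1 by 0.72, while the primase PRIM1 rose by 0.67. Of 60 mitosis genes 28 were lower and 15 higher (median −0.10), against 5 lower and 0 higher with spike-in scaling. CDC20, which activates the anaphase-promoting complex, had 265, 281 and 281 TPM at 24 h, against 414, 439.9 and 451 TPM at 6 h. The 24 h level was lower without overlap (log2 fold change −0.66 ± 0.04), and the DMSO mean was 263 TPM. KPNA2 fell by 0.63, CCNB1 by 0.44 and HMMR rose by 0.67. HIST1H2AG, PRIM1, CCNB1 and HMMR lost their calls with spike-in scaling.

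Among the 17 genes of G1 control, 8 were higher and 4 lower, with a median of 0.07, against 0 higher and 2 lower and a median of −0.15 with spike-in scaling. RB1, the retinoblastoma tumour suppressor, had 35.6 ± 1.74 TPM at 24 h and 19.4 ± 0.940 TPM at 6 h, RBL2 rose by 0.64 and CDK6 by 0.58. CDKN1A (p21), the CDK inhibitor and p53 target, had 4.64, 3.82 and 3.86 TPM at 24 h, against 8.93, 9.31 and 9.67 TPM at 6 h. It was lower in every 24 h library (log2 fold change −1.02 ± 0.074) and below the DMSO mean of 18.4 TPM, after a mean of 159 TPM at 1 h. MDM2, another p53 target, had 14.2, 13.4 and 14.1 TPM at 24 h, against 13.4, 13.5 and 14.3 TPM at 6 h and was not called (log2 fold change 0.01 ± 0.051, 95% confidence interval −0.10 to 0.13). Of 27 p53 targets 11 were higher and 7 lower, with a median of 0.03, against 2 higher and 5 lower and a median of −0.19 with spike-in scaling. The counts of the G1 and p53 lists were near the shares over all genes tested (43.5% higher and 28.7% lower). BBC3 (PUMA), a killer of the BCL2 family, was higher, with 7.39 ± 0.683 TPM at 24 h and 2.29 ± 0.393 TPM at 6 h (log2 fold change 1.36 ± 0.10), TP53INP1 rose by 1.16 and TNFRSF10B by 0.65, while GADD45B fell to 24.4 TPM at 24 h, against 53.4 TPM at 6 h. In the BCL2 family of 18, 10 were higher and 3 lower (median 0.13), against 2 higher and 1 lower (median −0.09) with spike-in scaling: BCL2 had 16.98 ± 0.945 TPM at 24 h and 10.01 ± 0.799 TPM at 6 h, BMF 10.6 ± 0.462 TPM at 24 h and 5.01 ± 0.398 TPM at 6 h and BCLAF1, a binding partner, 41.7 ± 2.14 TPM at 24 h and 65.3 ± 1.91 TPM at 6 h. RB1, RBL2, CDK6, BCL2 and TNFRSF10B lost their calls with spike-in scaling.

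Several regulators of plasma cell identity that were below DMSO at 6 h were higher at 24 h. IRF4 had 62.9, 63.6 and 60.1 TPM at 24 h, against 37.8, 37.3 and 42.5 TPM at 6 h. Every 24 h library was higher (log2 fold change 0.65 ± 0.054, adjusted p = 2.16e-06), and the 24 h level was below the DMSO mean of 91.6 TPM by −0.55 on the log2 scale (95% confidence interval −0.71 to −0.38). MYC had 319.9, 314 and 312 TPM at 24 h, against 221, 235 and 249.9 TPM at 6 h. The times did not overlap (log2 fold change 0.42 ± 0.044), and 24 h lay far under the DMSO mean of 808 TPM. POU2AF1 (OCA-B), a B cell coactivator of octamer promoters, had 71.2, 69.2 and 69.4 TPM at 24 h, against 35.9, 38.5 and 41.4 TPM at 6 h, again without overlap (log2 fold change 0.84 ± 0.052) and below 110.4 TPM in DMSO. MAF, the oncogene of a myeloma subtype, had 282 ± 8.54 TPM at 24 h and 179 ± 12.2 TPM at 6 h (log2 fold change 0.66 ± 0.048). IRF4, MYC, POU2AF1 and MAF lost their calls with spike-in scaling, where the log2 fold change of IRF4 was 0.43 (adjusted p = 0.283) and that of MYC 0.20 (adjusted p = 0.658).

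The Ikaros factors IKZF1 and IKZF3 and the factor MEF2C were also higher. IKZF1 had 34.2 ± 1.29 TPM at 24 h and 26.5 ± 1.82 TPM at 6 h, IKZF3 had 8.32 ± 0.218 TPM at 24 h and 5.58 ± 0.246 TPM at 6 h and MEF2C had 27.4 ± 0.767 TPM at 24 h and 20.8 ± 0.384 TPM at 6 h. Their DMSO means were 29.1, 7.46 and 27.8 TPM. In the limma fit of all 15 libraries IKZF1 was not called against DMSO at 6 h (log2 fold change −0.12, adjusted p = 0.216) and was above DMSO at 24 h (0.23, adjusted p = 0.0235). PRDM1 (BLIMP1), which drives plasma cell differentiation, went down (21.8 ± 0.558 TPM at 24 h and 28.1 ± 2.03 TPM at 6 h, log2 fold change −0.35 ± 0.056), and so did XBP1, the transcription factor of the secretory program (399 ± 3.08 TPM at 24 h and 538 ± 12.04 TPM at 6 h, log2 fold change −0.43 ± 0.03). Over 28 plasma cell transcription factors 17 were higher and 6 lower (median 0.33), against 3 higher and 1 lower with spike-in scaling, with SPI1 (PU.1) at 59.8 ± 1.27 TPM at 24 h and 28.4 ± 0.492 TPM at 6 h and IRF8 at 27.3 ± 1.49 TPM at 24 h and 13.2 ± 0.235 TPM at 6 h. In the MYC, MAX and MXD network of 12, 7 were higher and 3 lower (median 0.34), against 0 higher and 1 lower with spike-in scaling: the repressors MNT, MXD3 and MXI1 rose by 0.70, 0.60 and 0.55, and MXD1 fell by 0.50. IKZF1, IKZF3, MEF2C, PRDM1, XBP1, MNT, MXD3 and MXI1 lost their calls with spike-in scaling.

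**Figure D3:**
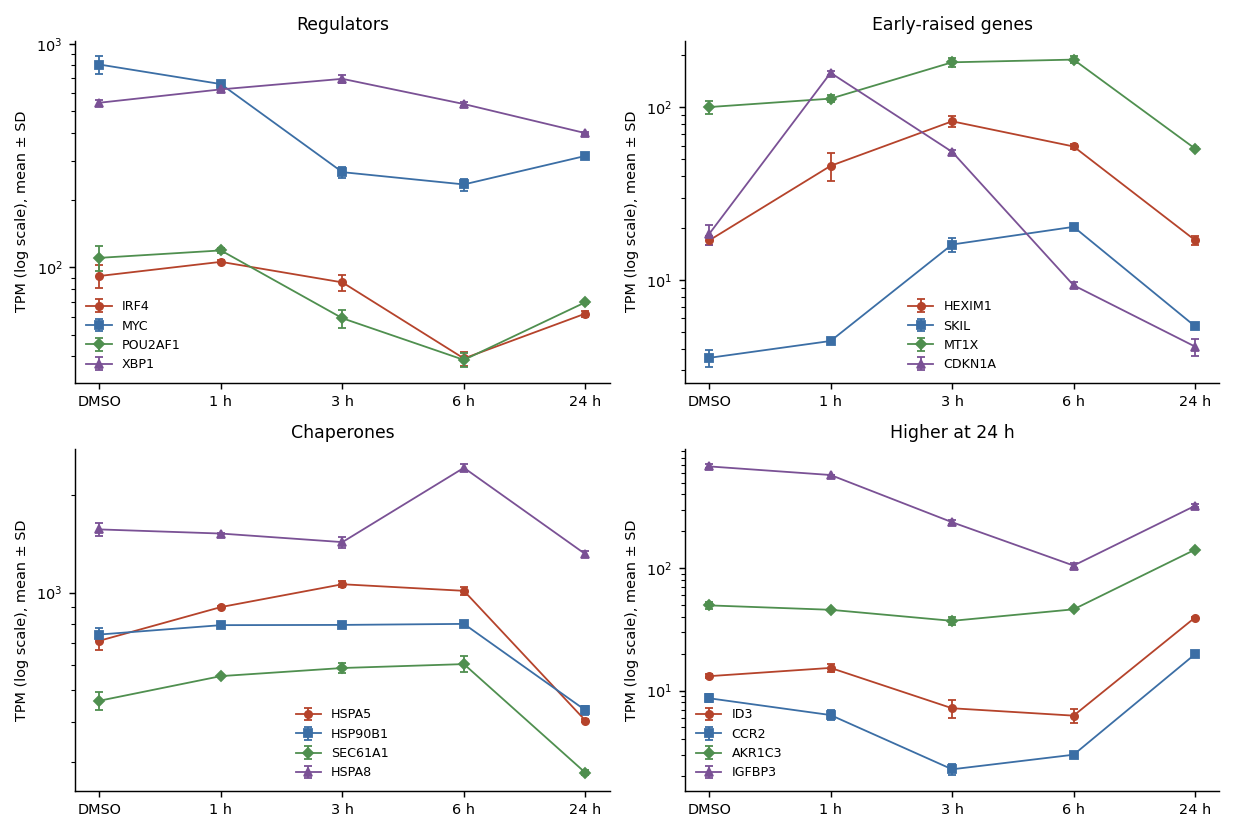
Mean TPM ± SD (3 libraries per group, log scale) in DMSO and after 1, 3, 6 and 24 h of KB528 for regulators, genes raised early, chaperones and genes higher at 24 h. IRF4, MYC and POU2AF1 are higher at 24 h than at 6 h, while XBP1, the early-raised genes and the chaperones are lower.

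Surface and lineage genes did not share 1 direction, where 43.5% of all genes tested were higher and 28.7% lower. Of 22 myeloma surface antigens 11 were higher and 7 lower, with a median of 0.18, against 2 higher and 3 lower and a median of 0.00 with spike-in scaling. SDC1 (CD138) had 158, 160.3 and 155 TPM at 24 h, against 93.9, 97.7 and 103 TPM at 6 h. TNFRSF17 (BCMA), the receptor that supports plasma cell survival, had 48.3, 50.9 and 50.9 TPM at 24 h, against 74.6, 73.6 and 73.7 TPM at 6 h. SDC1 was higher and TNFRSF17 lower in every 24 h library (log2 fold changes 0.68 ± 0.041 and −0.55 ± 0.039), and both stayed below their DMSO means of 243 and 123 TPM. NCAM1 (CD56) had 51.3 ± 1.80 TPM at 24 h and 28.9 ± 1.41 TPM at 6 h and CD86 12.7 ± 1.29 TPM at 24 h and 6.24 ± 0.223 TPM at 6 h. Among 11 MAF targets 6 were higher and 3 lower (median 0.32), against 1 higher and 1 lower with spike-in scaling: DEPTOR, an inhibitor of mTOR, had 78.4 ± 2.34 TPM at 24 h and 34.7 ± 1.14 TPM at 6 h and CCR1 110.1 ± 2.64 TPM at 24 h and 79.3 ± 1.93 TPM at 6 h, while the integrin ITGB7 fell to 1156 TPM at 24 h, against 1954 TPM at 6 h. Of 15 B cell genes 8 were higher and 4 lower (median 0.16), against 0 higher and 2 lower with spike-in scaling. BLNK, an adaptor of the B cell receptor, had 48.1 ± 0.719 TPM at 24 h and 28.6 ± 0.554 TPM at 6 h, BTK 27.03 ± 0.529 TPM at 24 h and 20.1 ± 0.716 TPM at 6 h and CD53 56.5 ± 1.48 TPM at 24 h and 38.5 ± 0.795 TPM at 6 h, and FCER2 (CD23) fell by 0.95. SDC1, NCAM1, CCR1, BLNK, BTK and CD53 lost their calls with spike-in scaling.

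Coactivators and chromatin enzymes also split by family. EP300, the named target of KB528, had 34.1, 32.6 and 30.01 TPM at 24 h, against 44.8, 46.8 and 53.8 TPM at 6 h. CREBBP, its paralogue, had 29.4, 27.04 and 25.2 TPM at 24 h, against 39.8, 40.2 and 45.3 TPM at 6 h. Both were lower in every 24 h library (log2 fold changes −0.57 ± 0.07 and −0.60 ± 0.066) yet above their DMSO means of 22.1 and 16.6 TPM. CITED2, which competes for a domain of p300 and CBP, had 196, 202 and 196 TPM at 24 h, against 79.6, 79.8 and 82.9 TPM at 6 h. It was higher without overlap (log2 fold change 1.28 ± 0.035), and the DMSO mean was 221 TPM. Of 17 acetyltransferases and partners 8 were lower and 4 higher (median −0.05), against 2 lower and 2 higher with spike-in scaling, and KAT5 (TIP60) fell by 0.42. KAT5 lost its call with spike-in scaling.

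Histone deacetylases, which remove the mark, were mostly higher, with 12 of 17 higher and 2 lower (median 0.29), against 2 higher and 1 lower with spike-in scaling. HDAC9 had 6.43, 6.38 and 6.26 TPM at 24 h, against 1.19, 1.21 and 1.28 TPM at 6 h. Its 24 h libraries were all above its 6 h libraries (log2 fold change 1.72 ± 0.068), and HDAC6 had 27.2 ± 1.88 TPM at 24 h and 14.9 ± 1.11 TPM at 6 h and HDAC11 2.91 ± 0.340 TPM at 24 h and 0.784 ± 0.0136 TPM at 6 h. SIRT1 fell by 0.54. In the group of BET proteins and P-TEFb 6 were lower and 4 higher of 18 (median −0.02), against 3 lower and 0 higher with spike-in scaling. BRD2 had 14.2 ± 0.545 TPM at 24 h and 25.6 ± 1.63 TPM at 6 h and MEPCE, the 7SK capping enzyme, 77.9 ± 1.97 TPM at 24 h and 129.8 ± 5.79 TPM at 6 h, both lower, while BRD3 had 20.2 ± 0.641 TPM at 24 h and 13.5 ± 0.793 TPM at 6 h. Mediator and RNA polymerase II genes had 25 of 48 lower and 7 higher (median −0.14), against 3 lower and 0 higher with spike-in scaling, with POLR2A, the largest subunit, at 90.6 ± 5.20 TPM at 24 h and 172 ± 13.4 TPM at 6 h. MED10 fell by 0.49 and MED6 by 0.53, and CDK19 rose by 0.73. Chromatin remodelers and methylation enzymes were even, with 20 higher and 20 lower of 60 (median −0.02), against 0 higher and 1 lower with spike-in scaling: CHD4, CHD3 and DNMT3A rose by 0.57, 0.71 and 0.72, and PRMT1 fell by 0.40. Splicing factors were mostly lower, with 31 of 45 lower and 9 higher (median −0.21), against 3 lower and 0 higher with spike-in scaling: SRSF6 had 70.2 ± 2.09 TPM at 24 h and 147 ± 4.82 TPM at 6 h, TRA2B fell by 0.75 and SRSF3 by 0.47, and HNRNPA2B1 rose by 0.31. HDAC6, BRD3, MED10, CDK19, CHD4, CHD3, DNMT3A, PRMT1, SRSF3 and HNRNPA2B1 lost their calls with spike-in scaling.

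Immediate early genes were more often lower than higher at 24 h, while the balance of NF-kB targets depended on the settings. Of 26 AP-1, EGR and other immediate early genes 13 were lower and 5 higher (median −0.13), against 5 lower and 0 higher with spike-in scaling: FOSL1, an AP-1 subunit, had 6.04 ± 0.580 TPM at 24 h and 13.9 ± 0.668 TPM at 6 h, the phosphatases DUSP1 and DUSP2 fell by 0.62 and 0.47, and ATF3 rose by 0.80. Of 21 NF-kB targets 9 were lower and 6 higher (median −0.11), against 2 lower and 1 higher with spike-in scaling. Without the TPM filter 6 were lower and 6 higher, and without replicate 3 of 6 h 6 were lower and 7 higher. NFKBIA, the inhibitor that NF-kB itself induces, had 28.99, 29.2 and 28.1 TPM at 24 h, against 48.4, 53.6 and 54.4 TPM at 6 h. The 24 h libraries were lower without overlap (log2 fold change −0.83 ± 0.051), and the DMSO mean was 24.04 TPM. RELB fell by 0.61 and NFKBIB by 0.39, and the adaptor TRAF1 rose by 1.62. Of 15 Kruppel-like and SP factors 9 were higher and 3 lower (median 0.25), against 1 higher and 0 lower with spike-in scaling: KLF13 had 55.1 ± 2.07 TPM at 24 h and 31.5 ± 2.003 TPM at 6 h, KLF2 and KLF9 rose by 0.76 and 0.80, and SP2 fell by 0.37. DUSP2, ATF3, NFKBIB, KLF13, KLF2 and SP2 lost their calls with spike-in scaling.

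Cytokine and SMAD pathways held large changes in both directions. Of 22 JAK-STAT and PIM genes 8 were higher and 6 lower (median −0.02), against 2 higher and 4 lower with spike-in scaling. PTPN6 (SHP-1), a phosphatase that limits JAK signalling, had 37.1 ± 0.795 TPM at 24 h and 14.4 ± 0.410 TPM at 6 h (log2 fold change 1.31 ± 0.045), and STAT5A and STAT5B rose by 0.95 and 0.70. IL10RA, the interleukin 10 receptor, had 9.78 ± 0.845 TPM at 24 h and 27.3 ± 1.53 TPM at 6 h (log2 fold change −1.39 ± 0.067). Of 23 SMAD regulators 10 were higher and 7 lower (median 0.14), against 3 higher and 2 lower (median −0.08) with spike-in scaling: beside ID3 and SKIL, ID1 rose by 1.00 and ID2 by 0.48. The SMAD counts were near the shares over all genes tested (43.5% higher and 28.7% lower). STAT5B and ID2 lost their calls with spike-in scaling.

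Most interferon-stimulated genes rose. Of 30 tested, 22 were higher and 3 lower, with a median of 0.49, and 10 were higher and 2 lower with spike-in scaling. Against DMSO the list median was 0.28 at 24 h and −0.25 at 6 h. IFI35 had 64.4, 66.97 and 68.7 TPM at 24 h, against 32.4, 32.7 and 32.1 TPM at 6 h. SAMD9L, which restrains translation of viral RNA, had 10.6, 9.63 and 9.61 TPM at 24 h, against 3.60, 3.64 and 3.78 TPM at 6 h. In both genes the times were separate (log2 fold changes 1.02 ± 0.04 and 1.23 ± 0.062), and the DMSO means were 37.9 and 4.64 TPM. SP110, a nuclear body protein, rose by 1.21, and ISG20, an exonuclease, fell by 1.21. In antigen presentation 12 of 17 MHC class I genes were higher and 3 lower (median 0.26), against 0 higher and 2 lower (median 0.04) with spike-in scaling, and 3 of 4 class II genes were higher. The immunoproteasome subunit PSMB8 had 11.9 ± 0.318 TPM at 24 h and 6.23 ± 0.247 TPM at 6 h, the peptidase ERAP2 41.04 ± 1.27 TPM at 24 h and 25.7 ± 1.06 TPM at 6 h, and CALR, an ER chaperone of the same list, fell to 1111 TPM at 24 h, against 1776 TPM at 6 h. PSMB8 and ERAP2 lost their calls with spike-in scaling.

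PARP14, an ADP-ribosyltransferase, rose by 1.02 on the log2 scale, and its promoter is shown for the core of the interferon-stimulated response element, searched on both strands as GAAA and GAAA with 2 bases of any kind between them. The window is chr3:122680589-122680838 on the + strand of GRCh38.p14, with the match in capitals.
PARP14: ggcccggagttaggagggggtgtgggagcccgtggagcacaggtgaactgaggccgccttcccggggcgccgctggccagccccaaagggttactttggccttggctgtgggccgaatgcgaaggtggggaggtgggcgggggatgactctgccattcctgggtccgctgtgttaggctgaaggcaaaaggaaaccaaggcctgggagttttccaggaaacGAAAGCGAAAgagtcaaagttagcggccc

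Of 24 interferon-stimulated genes with a promoter, 13 held the core (54.2%), 10 of these were higher and 1 was lower, and 3.07% of all promoters and 2.30% of those of tested genes held it. No match says only that the letters are absent from the window.

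Actin and adhesion genes, 37 in all, had 24 higher and 3 lower and a median of 0.17, against 1 higher and 1 lower and a median of −0.05 with spike-in scaling. ACTB had 4888 ± 56.4 TPM at 24 h and 3507 ± 179.6 TPM at 6 h, TMSB4X, which binds actin monomers, 3084 ± 30.3 TPM at 24 h and 2097 ± 43.3 TPM at 6 h and CD63 176 ± 3.41 TPM at 24 h and 124 ± 3.27 TPM at 6 h, and LMNA fell by 0.66. Some markers of other cell types were detected in this cell line, and their part in other results was not tested. Of 13 epithelial markers tested 9 were higher and 2 lower, against 4 higher and 1 lower with spike-in scaling (summed 447 to 464 TPM at 24 h, 433 to 462 TPM at 6 h): ESRP1 had 46.4 ± 0.536 TPM at 24 h and 17.8 ± 0.796 TPM at 6 h, KRT86 and KRT81 rose by 1.02 and 1.26 with shared reads, and KRT15 fell to 48.2 TPM at 24 h, against 101 TPM at 6 h and 258 TPM in DMSO. The neutrophil gene LTF (lactoferrin) had 68.1, 66.96 and 65.7 TPM at 24 h, against 21.3, 21.1 and 24.9 TPM at 6 h. This was a rise without overlap (log2 fold change 1.54 ± 0.06), and the DMSO mean was 8.12 TPM. Of 5 T and NK cell markers 2 were higher and 1 lower, with CD8A at 2.65 ± 0.329 TPM at 24 h and 1.11 ± 0.155 TPM at 6 h, CD7 higher by 0.49 and ZAP70 lower by 0.29, a call lost without single libraries (adjusted p up to 0.146). Of 5 myeloid markers, 2 were higher and 2 lower, with CD14 higher by 0.46 and CD68 lower by 0.37. Erythroid, fibroblast and neuronal markers had 3, 2 and 3 tested genes. ACTB, TMSB4X, CD63, CD7, ZAP70, CD14 and CD68 lost their calls with spike-in scaling.

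**Figure D4:**
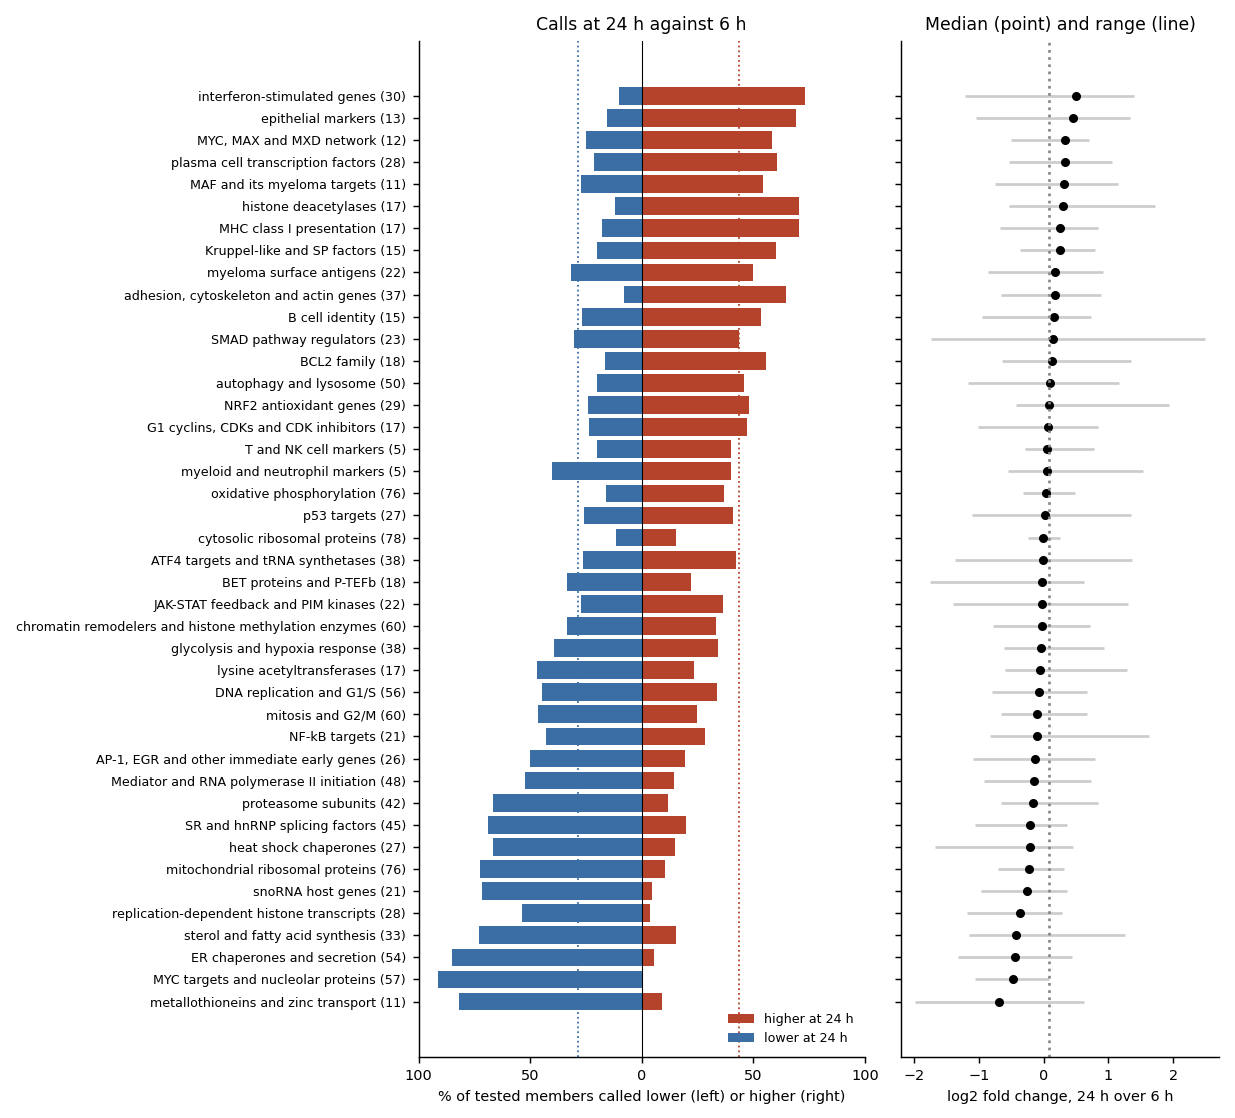
Left, percent of tested members called lower (blue) and higher (red) at 24 h against 6 h in 42 gene lists, with list sizes in brackets and dotted lines at the shares over all genes (28.7% lower, 43.5% higher). Right, median (point) and range (line) of log2 fold changes, with a dotted line at the median of all genes (0.08), where zinc handling, nucleolar and ER lists have the lowest medians and interferon-stimulated genes the highest.

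The move between 6 h and 24 h was for many genes opposite to the first hours of treatment. At 3 h against DMSO, which shares no library with the 6 h and 24 h groups, 2992 genes were lower (24.9%) and 2429 higher (20.2%). Of the 2992, 2347 were higher at 24 h than at 6 h, which is 78.4% of them and 45.0% of the 5220, and 183 were lower. Of the 2429, 1684 were lower, which is 69.3% of them and 48.9% of the 3442, and 161 were higher. Among the 6581 genes not called at 3 h, 41.2% were higher and 23.9% lower. With spike-in scaling of the 24 h and 6 h libraries, 586 of the 2992 were higher and 49 lower, and 511 of the 2429 were lower and 18 higher. Across the 12002 genes the log2 fold changes of the 2 comparisons correlated with r = −0.60 and rho = −0.65, where genes share library preparation and are not independent.

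Large changes are split here by the call at 3 h. Of the 453 genes that rose by 1 or more, 335 (74.0%) had been lower at 3 h, 109 were not called there and 9 had been higher. Of the 86 that fell by 1 or more, 59 (68.6%) had been higher at 3 h, 21 were not called and 6 had been lower. At 1 h against DMSO 536 genes were lower (4.47%) and 1187 higher (9.89%). Of the 536, 351 (65.5%) were higher at 24 h than at 6 h and 75 lower. Of the 1187, 702 (59.1%) were lower and 181 higher. Among the 10279 genes not called at 1 h, 45.6% were higher and 25.9% lower. With spike-in scaling, 88 of the 536 were higher and 13 lower, and 312 of the 1187 were lower and 24 higher. Of 16 genes lower by 1 log2 unit or more at 1 h, 7 (43.75%) were higher, near the 43.5% of all genes tested. Of 116 higher by that size, 66 (56.9%) were lower, against 28.7% of all genes tested. SH2D3C, an adaptor protein, rose by 1.38 after a fall at 3 h, and MIR663AHG, a microRNA host gene, fell by 0.92 after a rise at 3 h. Other genes changed without an early opposite move, such as AKR1C1 and LTF, whose 24 h means were 19.2 and 66.9 TPM, against 4.23 and 8.12 TPM in DMSO.

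**Figure D5:**
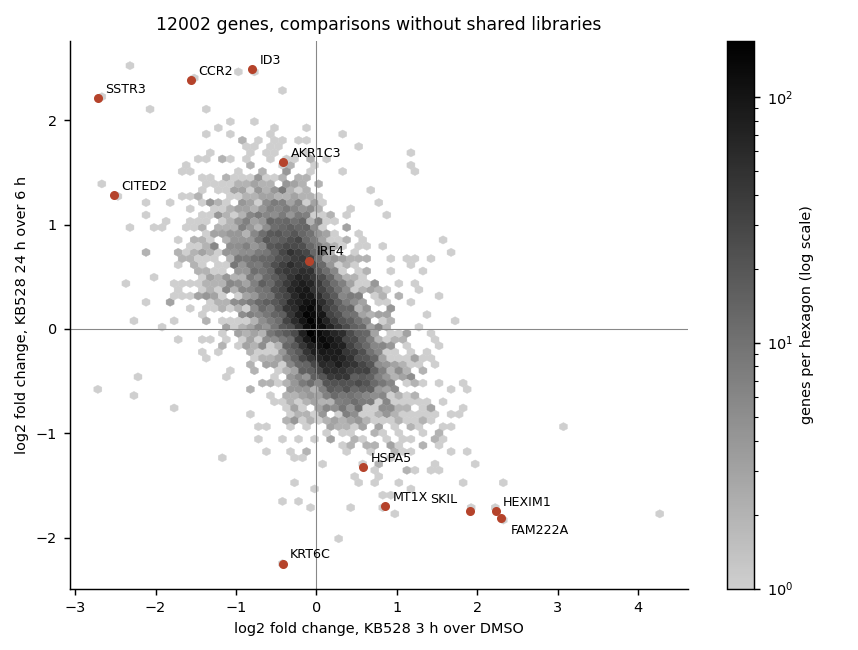
Log2 fold change at 24 h over 6 h (vertical) against that at 3 h over DMSO (horizontal) for 12002 genes, with shading by number of genes per hexagon on a log scale and 12 genes marked. The cloud runs from upper left to lower right (r = −0.60), with SSTR3, CCR2 and CITED2 at one end and HEXIM1, SKIL and FAM222A at the other.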

How the data were processed

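RNA of 15 RPMI-8226 libraries (5 groups of 3) was sequenced after messenger RNA selection with a strand-specific kit, per the labels' protocols. Alignment, counting and quality tools (STAR, featureCounts, FastQC and MultiQC) and hg19 are listed in the submitters' processing notes, with versions and settings not given in the sources used here. The authors deposited 1 table of TPM values, 26364 gene rows and 92 spike-in rows, in which every library sums to 1000000. Counts and depth are not held in TPM. Library columns named as untreated at 0 h were matched to the DMSO titles by their replicate number at that time, which left 0 columns without a sample. Gene classes and promoters came from RefSeq, where 95.6% of gene rows were found by name. Members and lists were chosen with earlier results of these data known.

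Spike-in rows were kept out of the tests. The test was limma (version 3.58.1, under R 4.3.3) on log2(TPM + 1), with lmFit followed by eBayes with its trend option (two-sided, Benjamini-Hochberg adjustment over 12002 genes, threshold 0.05) on the 6 libraries compared. The comparisons of 3 h and 1 h with DMSO used the same steps on their own libraries, and levels against DMSO at 24 h and 6 h came from 1 fit of all 15 libraries. Lists are described by counts of called members and by medians, without a set test. Named genes were 17 regulators, the 12 largest changes in each direction among called genes of at least 5 TPM without overlap, up to 4 members per list of at least 5 tested genes by adjusted p, the 6 highest rows, genes passing between under 0.5 TPM and at least 2 TPM, the 5 smallest adjusted p in each direction, and up to 5 genes per direction with opposite calls at 3 h. Genes named beside a promoter were named for their motif match. On simulated data made from the same 12002 genes, the test recovered 30 of 50 genes changed 1.25-fold and 48 of 50 changed 1.5-fold. It recovered 48 of 50 changed 2-fold and 50 of 50 changed 3-fold, with 10 false calls among 186. The simulation changed 200 genes with independent noise and no shared shift of a library, so it cannot vouch for the number of genes called here. Same-numbered 24 h and 6 h libraries did not deviate together. Alternatives were other pseudocounts, filters, scalings, libraries in the fit, variance models and the replicate number as a block, and each library left out. Summaries used pandas 2.3.3 and scipy 1.17.1 under Python 3.11.15, and plots matplotlib 3.10.9. A gene that the rule for naming took is not reported here.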

Additional observations from a re-analysis of the deposited data

How the results depend on the processing

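Calls shared between settings kept their direction in every alternative run. Against 8662 genes called, 7959 to 8626 were called with 1 library left out (7908 to 8266 of the 8662 among them) and 9214 with median-ratio scaling (8455 of the 8662 among them). Spike-in scaling, in which the log2 factors of the 6 h libraries spread between −0.54 and 0.11, gave 1634 called genes, 883 higher and 751 lower, with 235 higher and 188 lower by 1 log2 unit or more. A pseudocount of 0.1 gave 897 higher and 138 lower by that size. A filter of 5 TPM, which kept 9320 genes, gave 249 higher and 63 lower by that size. The cause was not tested. Of 196 called genes among the 201 taken by the rule for naming, 79 lost their call with spike-in scaling. EEF1A1, ZAP70 and HIST1H2AG lost theirs in some fits with 1 library left out.

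The replicate numbers did not pair the libraries, since correlations of same-numbered deviations were 0.092, −0.0042 and 0.013. With the number as a block, 8481 genes were called.

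Some values changed sign between settings, and not all of these were near 0. RPL22, RPL3 and RPL10A were called in the main fit, with log2 fold changes of 0.18, 0.15 and 0.11. Main list medians that changed sign included 0.18 for surface antigens and 0.17 for adhesion genes. MDM2 was −0.0278 with median-ratio and −0.202 with spike-in scaling (−0.00424 to 0.0408 with 1 library left out), RPS2 −0.0202 and −0.204 (−0.00670 to 0.0505), and RPLP1 −0.0269 and −0.211 (−0.000309 to 0.0341). With spike-in scaling RPL22 was −0.0478, RPL3 −0.0768 and RPL10A −0.118, and list medians were −0.00191 for surface antigens, −0.19 for p53 targets, −0.15 for G1 genes, −0.19 for oxidative phosphorylation, −0.11 for autophagy, −0.15 for NRF2 genes, −0.0923 for the BCL2 family, −0.0765 for SMAD regulators, −0.0523 for adhesion genes, −0.17 for T and NK markers and −0.18 for myeloid markers. With median-ratio scaling p53 targets were −0.0144 and oxidative phosphorylation −0.0015. With the spike-ins taken out of the total, BET proteins were 0.0050, ATF4 targets 0.0166, cytosolic ribosomal proteins 0.0244 and chromatin enzymes 0.0039. With 1 library left out, ATF4 targets ranged between −0.0446 and 0.0303, ribosomal proteins between −0.0191 and 0.0080, JAK-STAT genes between −0.0533 and 0.0175, and chromatin enzymes between −0.0626 and 0.0107. TPM are shares, so a loss or gain of total RNA is not seen without the spike-ins. Since the labels do not say how the spike-ins were added relative to cell number, whether they show it here is not known.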
